A study of Mus musculus with 9 samples.

Results

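The Hairless gene Hr and 9 nuclear receptor genes, Vdr, Rara, Rxra, Rxrb, Thra, Ppard, Pparg, Nr3c1 and Rora, were followed over 3 sorted populations of mouse thymic dendritic cells. They make up 10 of the 55302 gene symbols in the deposited count table. Hr was chosen by its high counts in the CD301b libraries, so its levels there are a description with no test. The 9 receptors were chosen for the ligand they bind (vitamin D, retinoids, thyroid hormone, fatty acids or glucocorticoids) or, for Rora, as an orphan receptor that Hairless is known to bind. Total RNA was sequenced from 9 libraries, 3 each of populations named CD301b (replicates 1, 3 and 4), SIRPa and XCR1 (replicates 1 to 3 each). All 9 came from C57BL/6 mice 8 weeks of age, with no treatment named. The titles name the populations after CD301b, a lectin encoded by Mgl2, after SIRPα, which marks type 2 conventional dendritic cells, and after XCR1, which marks type 1. The cell type label says thymic dendritic cells while the source name says thymocytes, the design text speaks of 3 mice, and neither the gates nor any pooling of animals is stated. P values therefore measure the spread between these libraries.

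Nuclear receptors are transcription factors that bind DNA and change their partners when a small lipid-soluble ligand sits in the pocket. Without ligand, many of them hold corepressors with histone deacetylases, and with ligand they exchange these for coactivators. RXR proteins, encoded by Rxra and Rxrb, are the shared partner of the vitamin D, retinoic acid, thyroid hormone and PPAR receptors, whereas the glucocorticoid receptor, encoded by Nr3c1, binds as a pair with itself and ROR proteins bind alone. Hairless is a nuclear corepressor with a JmjC domain, known from the skin and hair follicle, that binds the vitamin D, thyroid hormone and ROR receptors. Dendritic cells are known to make and to respond to retinoic acid and vitamin D.

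Each population carried the transcript behind its name, and CD301b libraries carried Sirpa as well. Mgl2 was at 624 ± 58.2 CPM in CD301b, at 23.2 ± 5.32 in SIRPa and at 1.82 ± 0.508 in XCR1 libraries (CPM, read counts scaled to library size, mean ± SD, n = 3 in each). Sirpa was at 646 ± 53.7, 774 ± 58.6 and 12.5 ± 3.06 CPM in the same order, and Xcr1 at 0.619 ± 0.403, 9.61 ± 5.19 and 766 ± 96.7 CPM. The 5 dendritic cell markers Flt3, Zbtb46, Itgax, H2-Aa and Cd74 were detected in all 3 populations. Libraries held 20246092 to 25438864 counts. The summed level of 9 thymocyte markers ranged from 89.8 to 247 CPM in CD301b, from 87.4 to 229 in SIRPa and from 40.4 to 394 in XCR1 libraries, and the XCR1 range spanned those of both other populations.

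Hr (ENSMUSG00000022096, chr14:70552212-70573548, plus strand, GRCm38) was a transcript of the CD301b libraries, present at 9.58% of that level in SIRPa and not detected in XCR1. It stood at 93.8, 104 and 83.0 CPM in CD301b replicates 1, 3 and 4, at 7.38, 9.53 and 10.04 CPM in SIRPa replicates 1 to 3, and at 0 in each XCR1 library. The underlying counts were 2355, 2492 and 1696 in CD301b, 156, 217 and 213 in SIRPa, and 0, 0 and 0 in XCR1. The 3 CD301b libraries lay far above all SIRPa libraries, and no XCR1 library held a read. These values chose the gene: means were 93.8 ± 10.7 CPM in CD301b and 8.98 ± 1.41 in SIRPa (SD, n = 3 each), a ratio of 10.4 and a log2 fold change of 3.38 ± 0.21 (SE), given without a test. Against XCR1, where 0 counts allow up to 3 over the group or 0.0485 CPM, Hr was at least 1932-fold higher in CD301b. In SIRPa it was at least 185-fold higher than in XCR1 (edgeR quasi-likelihood test, adjusted p = 1.28e-11), and this call held when any 1 library was left out (9.41e-12 to 8.23e-11). The SIRPa libraries also stood in the contrast that chose Hr. In bulk RNA, fewer cells of a type and less RNA per cell cannot be told apart.

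In SIRPa libraries Hr kept a larger share of its CD301b level than Mgl2, the gene of the lectin that names the CD301b population. As a percentage of the CD301b mean, Hr was at 7.87, 10.2 and 10.7% in SIRPa replicates 1 to 3, and Mgl2 was at 2.83, 3.76 and 4.54%. Each SIRPa library was thus higher for Hr than any was for Mgl2, with means of 9.58 ± 1.504% for Hr and 3.71 ± 0.852% for Mgl2. Mgl2 stands for the sorted marker and Hr was picked for CD301b, so these percentages are a description. A large share did not mark Hr out, since the 5 genes closest to it in profile, named below, each kept a larger mean share. Cd209d, for example, was at 189 ± 10.6 CPM in CD301b and 35.5 ± 2.36 in SIRPa. The number of CD301b-bearing cells in the SIRPa gate is not stated, and their part in the Hr level of SIRPa libraries was not tested. The sum of 4 markers of type 2 dendritic cells ordered the populations the way Hr did. It was at 1446 to 1731 CPM in CD301b, at 942 to 1051 in SIRPa and at 24.0 to 24.9 in XCR1. Of these markers Mgl2, Irf4 and Clec10a had that order and Sirpa was highest in SIRPa. Irf4 was at 252 ± 26.2, 154 ± 8.32 and 9.97 ± 3.21 CPM in the same order of populations. The sum of 5 plasmacytoid dendritic cell markers had the order of Hr too. It was at 484 to 621 CPM in CD301b, at 332 to 375 in SIRPa and at 115 to 140 in XCR1, with none at 0 in a population. Most of it was Tcf4, at 389 ± 54.9 CPM in CD301b, at 203 ± 27.04 in SIRPa and at 43.5 ± 5.79 in XCR1, whereas Bst2 and Ly6d were highest in SIRPa, at 74.0 ± 3.18 and 6.52 ± 1.96 CPM against 62.2 ± 7.25 and 0.973 ± 0.344 in CD301b. The same order held for the sum of 4 stroma and endothelium markers, at 106 to 119 CPM in CD301b, at 39.6 to 53.6 in SIRPa and at 12.7 to 23.2 in XCR1, nearly all of it Pecam1, while the fibroblast markers Col1a1 and Pdgfra were at 0 in SIRPa. Their part in the Hr result was not tested.

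**Figure D1:**
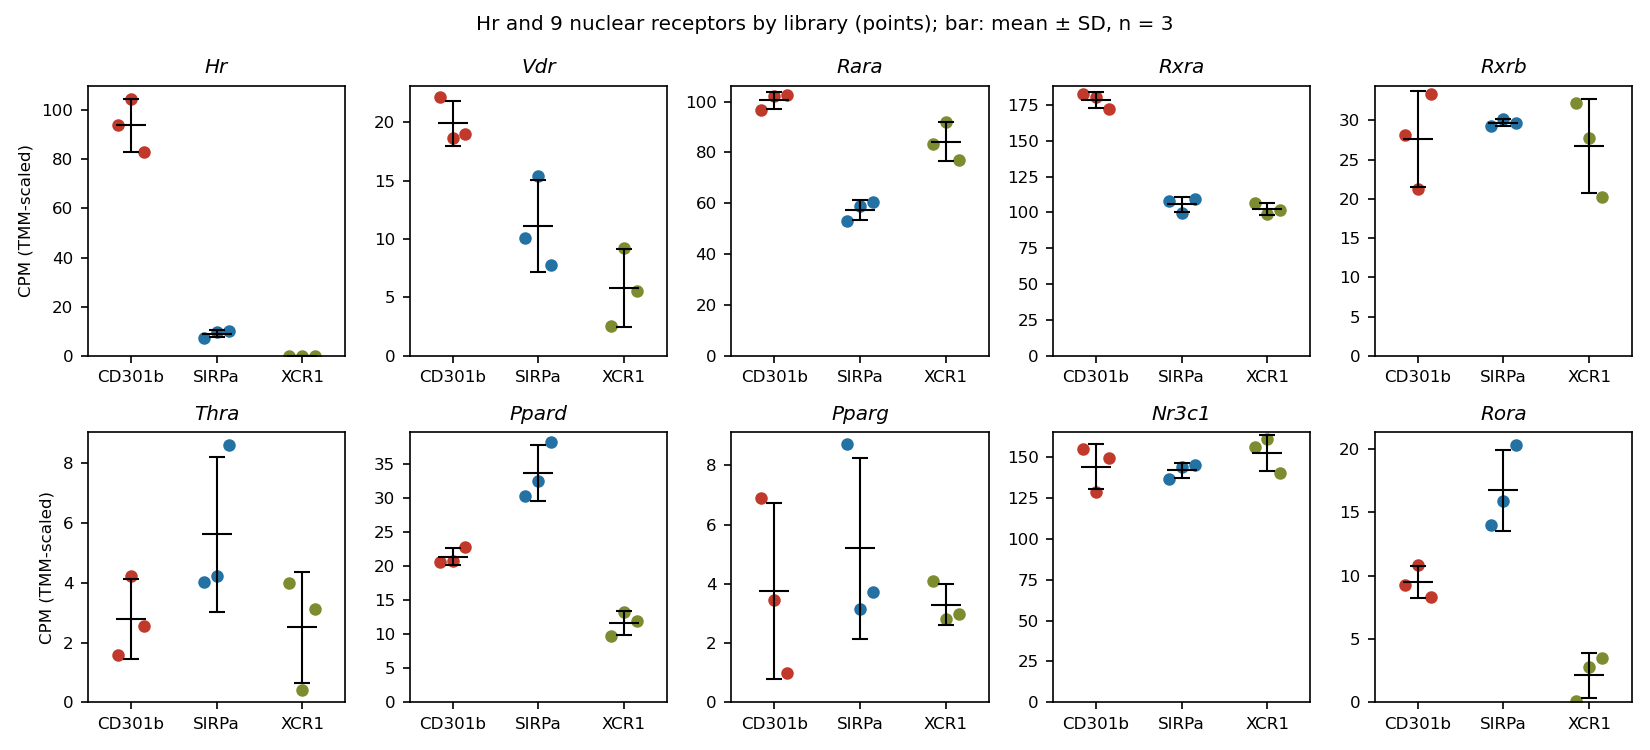
TMM-scaled CPM of Hr and the 9 receptors in each library (points), with the mean and SD of 3 libraries as bars, for CD301b, SIRPa and XCR1 from left to right. Hr was at 83.0 to 104 CPM in CD301b, at 7.38 to 10.04 in SIRPa and at 0 in XCR1, Rxra and Rara were highest in CD301b, and Ppard and Rora were highest in SIRPa.

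No gene beside Hr on the chromosome was called between CD301b and SIRPa, a count near the background for so few genes. Within 100 kb of its ends lie 11 other protein-coding genes, of which 6 had enough counts to be tested. Between CD301b and SIRPa, 0 of the 6 were called by edgeR at an adjusted p of at most 0.05, 0 had an unadjusted p under 0.05 and DESeq2 called 0, against a background of 4.28% of 15417 genes called in either direction. Reep4, an endoplasmic reticulum shaping protein whose gene ends 3278 bases before Hr, was at 21.1 ± 5.71 CPM in CD301b, at 15.7 ± 2.39 in SIRPa and at 19.7 ± 4.24 in XCR1. Nudt18, a nucleotide hydrolase 4088 bases beyond Hr, was at 10.05 ± 2.67, 9.04 ± 1.28 and 7.52 ± 0.862 CPM in the same order. Bmp1, a protease that processes procollagen, 31977 bases away, was the 1 neighbour called against XCR1, at 6.08 ± 1.60 CPM in CD301b and 8.45 ± 0.276 in SIRPa against 1.27 ± 0.681 in XCR1 (adjusted p = 0.00217 and 0.000368).

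Over the 9 libraries, the 5 genes whose profile was closest to that of Hr were Pi16, Cd209d, Ngfr, Cd300lg and Podn. Closeness was the root mean square difference of log2 CPM after each gene was centred on its own mean, among 9426 genes with a mean of at least 5 CPM. It came to 0.54 for Pi16, a peptidase inhibitor, 0.81 for Cd209d, a lectin of the DC-SIGN family, and 0.90 for Ngfr, the p75 neurotrophin receptor. For Cd300lg, a CD300 family glycoprotein, it was 0.91, and for Podn, a leucine-rich proteoglycan, 0.92. All 5 were high in CD301b, lower in SIRPa and at or near 0 in XCR1. Cd209d was at 189 ± 10.6 CPM in CD301b and 35.5 ± 2.36 in SIRPa, and held 7 counts over the XCR1 libraries. Ngfr was at 150 ± 22.4 CPM in CD301b and 35.8 ± 7.38 in SIRPa, and held 9 counts in XCR1. Pi16 was at 44.4 ± 6.66 CPM in CD301b, at 5.31 ± 1.09 in SIRPa and at 0 in XCR1. These genes were picked for their likeness to a gene that was itself picked for CD301b, so no test applies.

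**Figure D2:**
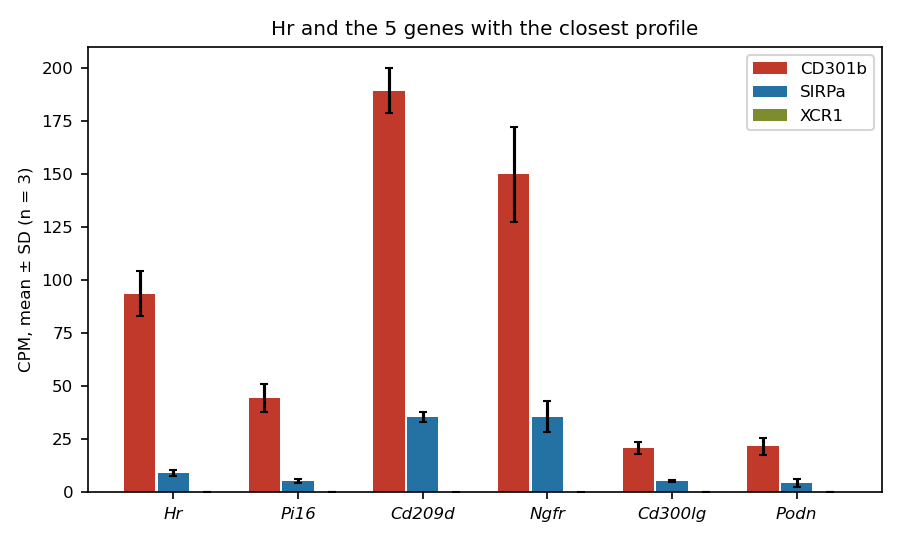
Mean CPM ± SD (n = 3) of Hr and the 5 genes with the smallest root mean square difference from it over 9 libraries, with CD301b, SIRPa and XCR1 bars from left to right. All 6 genes were highest in CD301b, and no XCR1 bar can be seen because Hr, Pi16, Cd300lg and Podn had 0 counts there and Cd209d and Ngfr had 7 and 9.

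The 9 receptors did not move as a block. Between CD301b and SIRPa, Rara and Rxra were higher in CD301b and the other 7 receptors missed the threshold, 2 of 9 called against 4.28% of all genes called in either direction and 2.2% called higher. Against 2.08% of genes called lower, no receptor was called lower by edgeR, 1 had an unadjusted p under 0.05 in that direction and DESeq2 called 1, in each case Ppard. Between CD301b and XCR1, Vdr, Rxra, Ppard and Rora were higher in CD301b and the other 5 missed the threshold, 4 of 9 against 22.6% of genes, of which 13.5% were higher and 9.12% lower. Between SIRPa and XCR1, Ppard and Rora were higher and Rara lower in SIRPa, 3 of 9 against 24.7%, with 13.9% of genes higher and 10.7% lower. The libraries of the groups compared did not overlap for 5 receptors in CD301b against SIRPa, where this held for 22.1% of genes. They did not overlap for 5 in CD301b against XCR1 (34.4% of genes) and for 4 in SIRPa against XCR1 (40.2%). The median log2 fold change of the 9 was -0.11 for CD301b over SIRPa, 0.26 for CD301b over XCR1 and 0.66 for SIRPa over XCR1, beside 0.01, 0.05 and 0.06 for all genes tested.

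**Figure D3:**
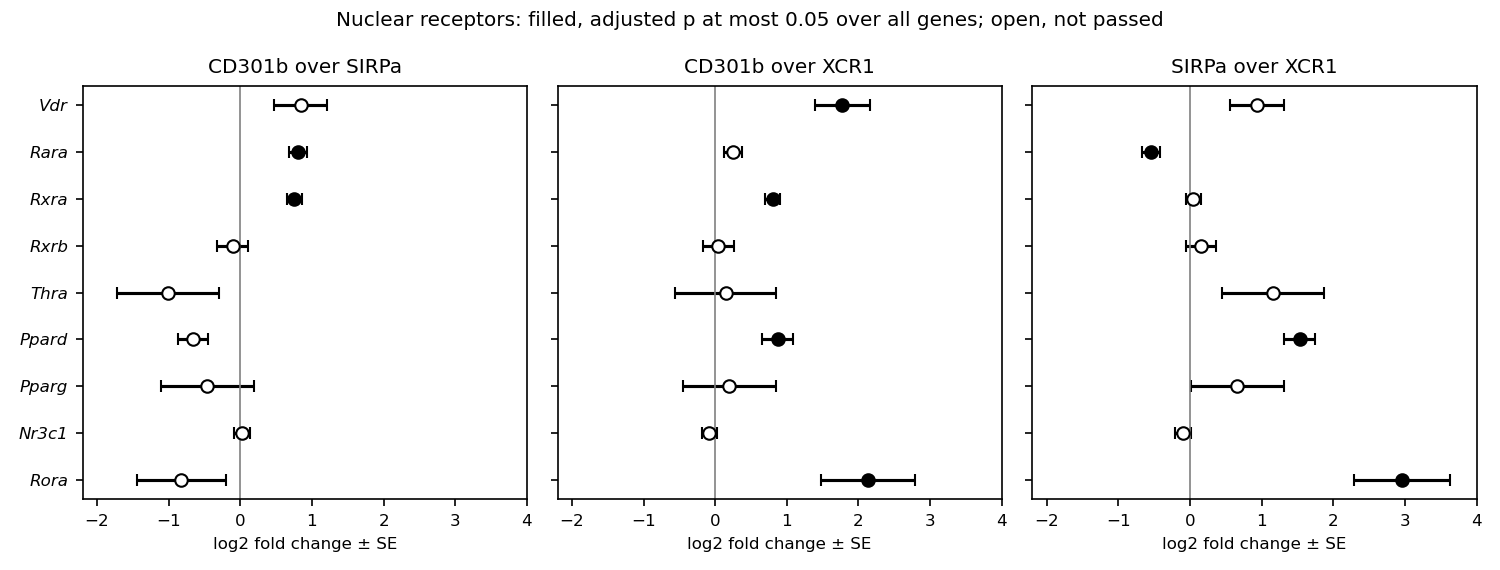
Log2 fold change ± SE of the 9 receptors from the edgeR fit for CD301b over SIRPa, CD301b over XCR1 and SIRPa over XCR1, with filled points where the adjusted p over all genes was at most 0.05. Rara and Rxra lie on the CD301b side of SIRPa, and Ppard and Rora lie furthest to the SIRPa side of XCR1.

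Rxra, the RXR partner shared by most of these receptors, was higher in CD301b than in either other population (ENSMUSG00000015846, chr2:27676440-27762957, plus strand). It stood at 183, 180 and 172 CPM in CD301b replicates 1, 3 and 4, at 108, 99.4 and 109 in SIRPa replicates 1 to 3, and at 106, 98.6 and 102 in XCR1 replicates 1 to 3. The CD301b libraries lay above all 6 others, and the SIRPa and XCR1 libraries overlapped. The log2 fold change was 0.75 ± 0.11 over SIRPa (edgeR, adjusted p = 0.000145) and 0.80 ± 0.11 over XCR1 (7.28e-06), and 0.05 ± 0.11 for SIRPa over XCR1 (0.836). Both calls held in all 9 fits that left out 1 library, with adjusted p up to 0.00251 over SIRPa and up to 8.21e-05 over XCR1.

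Its relative Rxrb, the more evenly expressed RXR gene, did not pass in any comparison. It was at 28.1, 21.2 and 33.4 CPM in CD301b, 29.3, 30.2 and 29.7 in SIRPa, and 32.2, 27.7 and 20.3 in XCR1 libraries (adjusted p = 0.930, 0.925 and 0.698 for CD301b over SIRPa, CD301b over XCR1 and SIRPa over XCR1). The replicates of CD301b and of XCR1 spread over the whole range of the gene. Per kilobase of annotated exon, the ratio of Rxra to Rxrb was therefore 3.74 to 6.18 in CD301b, at 2.40 to 2.68 in SIRPa and at 2.41 to 3.66 in XCR1 libraries, and only the CD301b and SIRPa ranges and the CD301b and XCR1 ranges were apart. Rxrg, the last RXR gene, was at 0, 0.0838 and 1.81 CPM in CD301b, at 0.568, 1.19 and 0.0943 in SIRPa and at 0 in each XCR1 library, and did not pass in any comparison (edgeR, adjusted p = 1, 0.0857 and 0.0821 in the same order).

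Rara, the alpha receptor for retinoic acid, was at its lowest in SIRPa (ENSMUSG00000037992, chr11:98927818-98974942, plus strand). It stood at 96.8, 102 and 102 CPM in CD301b, 53.0, 58.8 and 60.5 in SIRPa, and 83.4, 92.1 and 76.9 in XCR1 libraries. The SIRPa libraries lay below all others, and the CD301b libraries lay above those of XCR1 by a small margin. Its log2 fold change was 0.81 ± 0.13 for CD301b over SIRPa (edgeR, adjusted p = 0.000439) and -0.55 ± 0.13 for SIRPa over XCR1 (0.00229). For CD301b over XCR1 it was 0.26 ± 0.12 and did not pass (0.165). The genes closest to Rara in profile were Sema4a, a semaphorin, at 236 ± 16.2 CPM in CD301b, at 147 ± 9.43 in SIRPa and at 194 ± 21.4 in XCR1, then Mbnl3, a splicing regulator, and H2-DMb1, a chain of the class II peptide loader, with root mean square differences of 0.0957, 0.116 and 0.117. For Rxra they were Rtl5, a retrotransposon-derived gene, the nuclear receptor Nr4a3, and H2-DMa, the partner chain of H2-DMb1 (0.110, 0.110 and 0.111). H2-DMa was at 348 ± 7.76 CPM in CD301b, at 186 ± 16.6 in SIRPa and at 209 ± 12.5 in XCR1.

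The stretches of 250 bases before the annotated starts of Rara, Rxra, Ppard and Rora are printed because these 4 receptors were called in 2 comparisons each. For Rara, which has 4 entries, the first is shown. The sequences are RefSeq's, on build GRCm38.p6, 5′ to 3′ on the strand of the gene, in lower case. Capitals mark GGGCGG, the GC box bound by SP1-type factors, and AGGTCA, the half-site that nuclear receptors bind, on either strand, so that CCGCCC and TGACCT are the same motifs read from the other side.
Rara first start chr11:98937446-98937695 plus strand: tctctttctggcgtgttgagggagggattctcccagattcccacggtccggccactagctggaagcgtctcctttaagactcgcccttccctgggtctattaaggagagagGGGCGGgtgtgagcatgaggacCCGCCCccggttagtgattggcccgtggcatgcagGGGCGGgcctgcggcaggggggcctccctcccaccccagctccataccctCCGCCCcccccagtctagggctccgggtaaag
Rxra first start chr2:27676951-27677200 plus strand: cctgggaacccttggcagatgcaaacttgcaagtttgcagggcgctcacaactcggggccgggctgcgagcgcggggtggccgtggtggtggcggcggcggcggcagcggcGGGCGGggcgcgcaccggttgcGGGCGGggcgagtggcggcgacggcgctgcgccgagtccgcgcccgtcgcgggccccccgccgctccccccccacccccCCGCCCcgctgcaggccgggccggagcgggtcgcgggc
Rxra second start chr2:27709042-27709291 plus strand: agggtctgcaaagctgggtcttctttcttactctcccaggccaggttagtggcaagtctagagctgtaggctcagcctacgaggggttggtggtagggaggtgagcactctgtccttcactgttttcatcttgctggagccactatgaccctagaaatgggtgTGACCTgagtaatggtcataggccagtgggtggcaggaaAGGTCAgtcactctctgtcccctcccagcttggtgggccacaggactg
Ppard chr17:28232504-28232753 plus strand: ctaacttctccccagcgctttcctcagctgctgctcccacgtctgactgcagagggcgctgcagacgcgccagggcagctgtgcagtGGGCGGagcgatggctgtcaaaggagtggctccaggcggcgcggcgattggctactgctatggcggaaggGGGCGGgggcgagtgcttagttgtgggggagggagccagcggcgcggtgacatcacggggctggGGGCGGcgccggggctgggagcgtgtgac
Rora chr9:68653536-68653785 plus strand: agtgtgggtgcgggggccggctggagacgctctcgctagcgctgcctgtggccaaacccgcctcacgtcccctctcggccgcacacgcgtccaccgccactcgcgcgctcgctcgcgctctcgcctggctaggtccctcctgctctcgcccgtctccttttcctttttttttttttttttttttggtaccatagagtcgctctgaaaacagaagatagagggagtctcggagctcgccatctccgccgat
The first Rara stretch holds 4 GC boxes, the first Rxra stretch 3 and the Ppard stretch 3, and the Rora stretch holds none of the motifs searched. The second Rara entry (chr11:98937468-98937717) overlaps the first and holds the same 4 GC boxes, while the third holds 0 and the fourth 1. The second Rxra stretch holds no GC box and 2 AGGTCA half-sites, 87 bases before the start on the minus strand and 48 before it on the plus strand. By the gene spans printed here, the Rara stretch and both Rxra stretches lie within their gene. The Ppard stretch crosses the start of its gene span, and the Rora stretch ends just before that of Rora. These counts describe the letters of those windows. In all, 7 of the 10 genes have entries, 14 in number, and Hr, Thra and Nr3c1 have none. GGGCGG is in 10 of the 14 entries, with both overlapping Rara entries counted, and in 32.7% of 32817 mouse entries of the same length, searched on both strands. AGGTCA is in 3 of the 14, the second for Rxra and 2 for Pparg, and in 14% of all, and TATAAA is in 1 of 14, for Pparg, and in 12.4% of all. The direct repeats AGGTCANAGGTCA, AGGTCANNAGGTCA, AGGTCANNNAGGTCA, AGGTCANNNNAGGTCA and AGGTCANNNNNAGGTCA, which contain the half-site, are in 0 of the 14 and in 0.0335, 0.00914, 0.00609, 0.0152 and 0.00914% of all entries. The glucocorticoid motif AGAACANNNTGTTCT is in 0 of 14 and 0.00914% of all.

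Vdr, the vitamin D receptor, followed the order of Hr among the 3 populations on a far smaller scale (ENSMUSG00000022479, chr15:97854425-97910630, minus strand). It was at 22.1, 18.6 and 19.0 CPM in CD301b, 10.1, 15.4 and 7.78 in SIRPa, and 2.59, 9.26 and 5.55 in XCR1 libraries. The CD301b libraries lay above all others, while SIRPa and XCR1 overlapped. CD301b exceeded XCR1 by 1.78 ± 0.38 on the log2 scale (edgeR, adjusted p = 0.00142). Neither CD301b over SIRPa, with 0.84 ± 0.37 (0.286), nor SIRPa over XCR1, with 0.94 ± 0.38 (0.0775), passed. The comparison of SIRPa with XCR1 passed without XCR1 replicate 2, which holds the highest XCR1 value (1.45, 0.00935). With no filter on low counts its adjusted p was 0.0364.

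Ppard and Rora were highest in SIRPa and lowest in XCR1. Ppard, a fatty acid receptor that drives fat oxidation genes (ENSMUSG00000002250, chr17:28232700-28301474, plus strand), was at 20.6, 20.7 and 22.8 CPM in CD301b, 30.3, 32.5 and 38.2 in SIRPa, and 9.68, 13.3 and 12.0 in XCR1 libraries. No 2 populations overlapped. CD301b exceeded XCR1 by 0.87 ± 0.21 on the log2 scale (edgeR, adjusted p = 0.00442) and SIRPa exceeded XCR1 by 1.53 ± 0.22 (1.34e-05). CD301b over SIRPa was -0.66 ± 0.21 and did not pass (0.0911), but passed with DESeq2 (0.0496) and with only the 6 libraries compared (0.0456). The closest genes in profile were Zfp362, a zinc finger gene, Fam83f, and Lrp8, a lipoprotein receptor (root mean square difference 0.136, 0.148 and 0.165). Lrp8 was at 59.8 ± 10.1 CPM in CD301b, at 106 ± 7.63 in SIRPa and at 33.2 ± 4.65 in XCR1.

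Rora, the alpha ROR receptor (ENSMUSG00000032238, chr9:68653786-69388246, plus strand), was at 9.24, 10.8 and 8.32 CPM in CD301b, 14.01, 15.9 and 20.3 in SIRPa, and 0.1497, 2.803 and 3.47 in XCR1 libraries. The populations did not overlap, and XCR1 replicate 1 was near the floor. SIRPa exceeded XCR1 by 2.96 ± 0.67 on the log2 scale (edgeR, adjusted p = 0.00602) and CD301b exceeded XCR1 by 2.14 ± 0.65 (0.0345). The second call was lost in 7 of 9 fits that left out 1 library, all except those without XCR1 replicate 1 (0.00343) or XCR1 replicate 3 (0.0118). CD301b over SIRPa was -0.82 ± 0.61 (0.669). Of the 13071 exonic bases of Rora, 82 (0.627%) lie opposite the antisense gene Gm15511, and the strand setting of the counting is not stated. Closest to Rora were Gpr162, an orphan receptor, at 6.76 ± 2.26 CPM in CD301b, at 18.1 ± 3.72 in SIRPa and at 1.48 ± 1.16 in XCR1, then Epb41l3, a membrane skeleton protein, and Rilpl1 (0.45, 0.53 and 0.54).

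The summed macrophage markers ordered the populations the way Ppard and Rora did. The 7 markers stood at a sum of 1407 to 1631 CPM in CD301b, at 2309 to 2674 in SIRPa and at 88.3 to 108 in XCR1, and 0 of the 7 were at 0 in any population. C1qa, a complement subunit, was at 401 ± 20.7 CPM in CD301b, at 704 ± 34.9 in SIRPa and at 3.996 ± 5.15 in XCR1. Timd4, a phosphatidylserine receptor, was highest in CD301b instead, at 60.5 ± 12.6 CPM, with 19.8 ± 6.36 in SIRPa and 2.16 ± 0.968 in XCR1. The 5 innate lymphoid and NK cell markers summed to 115 to 132, 103 to 134 and 12.3 to 22.9 CPM in the same order, most of it Il7r, with Ncr1 at 0 in CD301b and XCR1. The part of these cells in the receptor results was not tested.

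Nr3c1, the glucocorticoid receptor, was the even member of the group. It was at 155, 128 and 149 CPM in CD301b, 137, 144 and 145 in SIRPa, and 156, 161 and 140 in XCR1 libraries (ENSMUSG00000024431, chr18:39410545-39519421, minus strand). All 3 populations overlapped. Log2 fold changes were 0.02 ± 0.11 for CD301b over SIRPa, -0.08 ± 0.11 for CD301b over XCR1 and -0.10 ± 0.11 for SIRPa over XCR1 (edgeR, adjusted p = 0.978, 0.701 and 0.600).

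Thra and Pparg were low and uneven between replicates. Thra, the alpha thyroid hormone receptor (ENSMUSG00000058756, chr11:98740638-98769006, plus strand), was at 1.59, 4.23 and 2.54 CPM in CD301b, 4.02, 4.22 and 8.62 in SIRPa, and 3.99, 0.428 and 3.13 in XCR1 libraries. Of its 4614 exonic bases, 263 (5.7%) lie opposite Nr1d1, so some of its reads may belong to that gene. Pparg, the receptor known from fat cells and alveolar macrophages (ENSMUSG00000000440, chr6:115360951-115490399, plus strand), was at 6.89, 3.44 and 0.979 CPM in CD301b, 8.71, 3.16 and 3.72 in SIRPa, and 4.09, 2.803 and 2.99 in XCR1 libraries. For both genes single libraries set the range, and neither passed in any comparison (adjusted p = 0.618, 0.925 and 0.282 for Thra and 0.874, 0.888 and 0.552 for Pparg, for CD301b over SIRPa, CD301b over XCR1 and SIRPa over XCR1).

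Among the 9 receptors, Rxra, Rara and Nr3c1 carried most of the transcript per kilobase of annotated exon in every population. In CD301b libraries Rxra led with a level of 32.6 ± 1.03 CPM per kb, ahead of Rara at 23.0 ± 0.724, Nr3c1 at 18.7 ± 1.80, Rxrb at 6.94 ± 1.54, Vdr at 3.52 ± 0.339 and Ppard at 2.84 ± 0.167. Below these, Pparg at 1.28 ± 1.01, Rora at 0.724 ± 0.0966 and Thra at 0.605 ± 0.290 did not differ from each other beyond their spread. In SIRPa libraries Rxra at 19.3 ± 0.990 and Nr3c1 at 18.5 ± 0.592 lay within their spread of each other and above Rara at 13.2 ± 0.898, Rxrb at 7.48 ± 0.112 and Ppard at 4.48 ± 0.539. Below these, Vdr at 1.97 ± 0.693, Pparg at 1.76 ± 1.03, Rora at 1.28 ± 0.246 and Thra at 1.22 ± 0.564 were not apart. In XCR1 libraries Nr3c1 at 19.8 ± 1.42, Rara at 19.3 ± 1.75 and Rxra at 18.7 ± 0.724 could not be ordered. Rxrb at 6.73 ± 1.52 came next there, and Ppard at 1.55 ± 0.242, Pparg at 1.12 ± 0.236, Vdr at 1.03 ± 0.592, Thra at 0.546 ± 0.403 and Rora at 0.164 ± 0.134 followed with overlapping spreads between neighbours.

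Summed over the 9 receptors, the level was 87.4 to 92.8 CPM per kb in CD301b, at 67.8 to 71.4 in SIRPa and at 64.1 to 71.7 in XCR1 libraries, with CD301b apart from the other 2 populations. Rxra took 36.1 ± 1.52% of that sum in CD301b, 28.0 ± 1.24% in SIRPa and 27.2 ± 1.97% in XCR1. Rara took 25.5 ± 1.48, 19.0 ± 0.971 and 27.9 ± 1.31%, and Nr3c1 took 20.7 ± 1.40, 26.7 ± 0.649 and 28.7 ± 0.412% in the same order. Hr itself was at 13.5 ± 1.55 CPM per kb in CD301b and 1.30 ± 0.204 in SIRPa libraries. In CD301b it thus lay below Nr3c1 and above Rxrb, and in SIRPa near Rora.

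Of the 49 nuclear receptor genes of the mouse that were looked up, 30 had enough counts to be tested, and 12 of the 19 others had 0 counts in all libraries. The highest per kilobase in each population was Nr4a3, an orphan receptor induced by activating signals, at 52.2 ± 4.97 CPM per kb in CD301b, at 29.5 ± 1.92 in SIRPa and at 26.9 ± 1.40 in XCR1. Next came Rxra in CD301b, Nr1h3 in SIRPa at 23.5 ± 6.94 and Nr1h2 in XCR1 at 20.3 ± 3.19. Nr1h3 and Nr1h2 lay there within their spread of the receptors that followed. Nr4a3 was the 1 receptor called between CD301b and SIRPa among the 21 tested besides the 9, at 342, 283 and 313 CPM in CD301b, 189, 173 and 167 in SIRPa, and 168, 163 and 152 in XCR1 libraries. The CD301b libraries were apart from all others, with a log2 fold change of 0.82 ± 0.11 over SIRPa (edgeR, adjusted p = 5.63e-05) and 0.96 ± 0.11 over XCR1 (5.86e-07). The other 20 did not pass between CD301b and SIRPa, where 4.28% of all genes were called, and the median over the 21 was -0.08. Without XCR1 replicate 3, a second one was called, lower in CD301b. Against XCR1, 3 of the 21 were higher in CD301b and 0 lower, where 13.5% of all genes were higher and 9.12% lower. In SIRPa 2 were higher and 2 lower, Nr1h2 and Nr4a2, where 13.9% of all genes were higher and 10.7% lower. These counts lie near the background. DESeq2 called 4 higher and 2 lower in CD301b, and 3 higher and 2 lower in SIRPa.

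Rarg, the gamma retinoic acid receptor, and Nr1h3, the oxysterol receptor LXR alpha, were the receptors that most set the XCR1 libraries apart. Rarg was at 29.3, 29.7 and 32.7 CPM in CD301b, 27.4, 24.0 and 27.9 in SIRPa, and 4.54, 2.47 and 2.89 in XCR1 libraries. Nr1h3 was at 31.8, 31.5 and 35.2 CPM in CD301b, 79.3, 49.7 and 48.4 in SIRPa, and 0.349, 0.380 and 2.70 in XCR1 libraries. XCR1 was far below both other populations for each gene, with log2 fold changes over XCR1 for Rarg of 3.21 ± 0.26 in CD301b (edgeR, adjusted p = 5.80e-09) and 3.00 ± 0.26 in SIRPa (1.49e-08), and for Nr1h3 of 4.83 ± 0.67 (0.00128) and 5.68 ± 0.68 (0.000543). Between CD301b and SIRPa neither passed (0.820 and 0.584). Nr1h3 followed the macrophage markers given above in its order of populations. Nr1h2, which encodes LXR beta, was lower in SIRPa at 45.0 ± 3.45 CPM, against 68.0 ± 10.7 in XCR1 (0.00549), and did not pass without XCR1 replicate 1. Nr4a2 (0.0141) did not pass without SIRPa replicate 2 (0.0647) or SIRPa replicate 3 (0.0636).

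**Figure D4:**
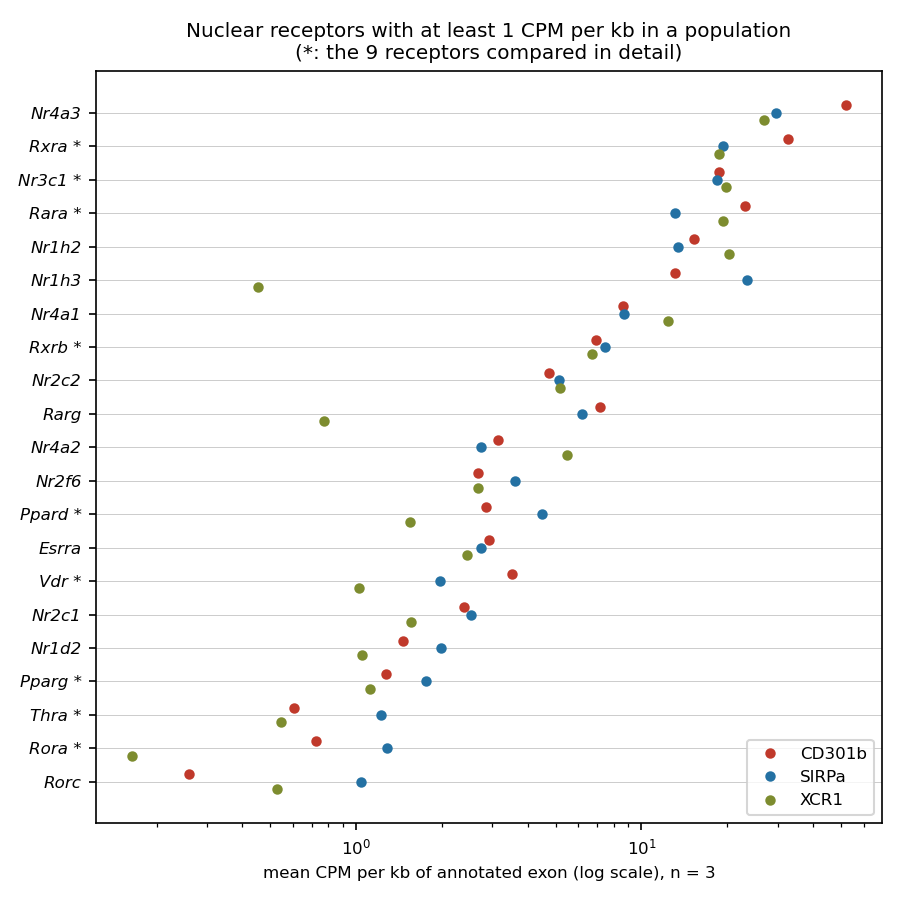
Mean CPM per kb of annotated exon (log axis, n = 3) of the 21 nuclear receptors with at least 1 CPM per kb in a population, with CD301b, SIRPa and XCR1 as separate points and the 9 receptors compared in detail marked by an asterisk. Nr4a3 leads in each population, and the XCR1 points of Nr1h3, Rarg and Rora lie far to the left of the other populations.

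Of the other gene lists looked at, retinoid supply and response held the only edgeR calls between CD301b and SIRPa. Of 20 retinoid genes listed, 9 could be tested, of which 1, Aldh1a2, was higher in CD301b, 1, Tgm2, was lower and 7 did not pass, where 2.2% of all genes were higher and 2.08% lower, with a median log2 fold change of -0.11. Aldh1a2, the enzyme that makes retinoic acid from retinal, was at 35.1, 20.0 and 29.3 CPM in CD301b, 8.23, 10.8 and 8.91 in SIRPa, and 1.95, 0.523 and 0.386 in XCR1 libraries. Each CD301b library was above each SIRPa library, and these were above XCR1. The log2 fold change over SIRPa was 1.59 ± 0.40 (edgeR, adjusted p = 0.0247), and the call was lost without CD301b replicate 1 or 4 or any 1 of SIRPa replicates 1 to 3 (0.0632 to 0.138). Tgm2, a transglutaminase induced by retinoic acid, was at 16.2, 20.1 and 23.4 CPM in CD301b, 48.7, 33.6 and 33.0 in SIRPa, and 3.09, 2.14 and 2.94 in XCR1 libraries. It was thus lower in CD301b by -0.95 ± 0.24 on the log2 scale (0.0245). That call was lost without SIRPa replicate 1 (0.250) and without CD301b replicate 1 (0.125) or 3 (0.0815). In 2 of these settings, without SIRPa replicate 1 or without CD301b replicate 1, 0 of the 9 were called.

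Against XCR1, most of the tested retinoid genes were higher in both other populations, where 13.5% of all genes were higher in CD301b and 13.9% in SIRPa. In CD301b 7 were higher and 1 lower, with a median log2 fold change of 2.87, and in SIRPa 6 were higher and 1 lower, with a median of 3.29 that became 3.27 with genes at 0 set to their bound. Among the 7, Rbp4 held 158, 124 and 91 counts in CD301b, 0, 0 and 18 in SIRPa and 0 in each XCR1 library. It passed the filter on low counts only through CD301b, so its call was close to fixed in advance and is a description. Aldh1a2 exceeded XCR1 by 4.89 ± 0.48 in CD301b (edgeR, adjusted p = 2.03e-07) and 3.29 ± 0.46 in SIRPa (1.71e-05) on the log2 scale, and Tgm2 by 2.87 ± 0.27 (4.46e-08) and 3.82 ± 0.27 (7.91e-10). Dhrs3, which turns retinal back into retinol, was at 26.2 ± 0.867 CPM in CD301b, at 40.9 ± 1.56 in SIRPa and at 4.24 ± 2.23 in XCR1. The gene that went the other way was Dhrs9, a retinol dehydrogenase relative, at 1.51 ± 0.877 CPM in CD301b and 3.58 ± 1.61 in SIRPa against 16.999 ± 5.43 in XCR1. The calls of Rdh11 rested on few fits, with 1 of 9 for CD301b and 2 of 9 for SIRPa still passing when 1 library was left out, and Cyp26b1 passed in 5 and 2 of 9.

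**Figure D5:**
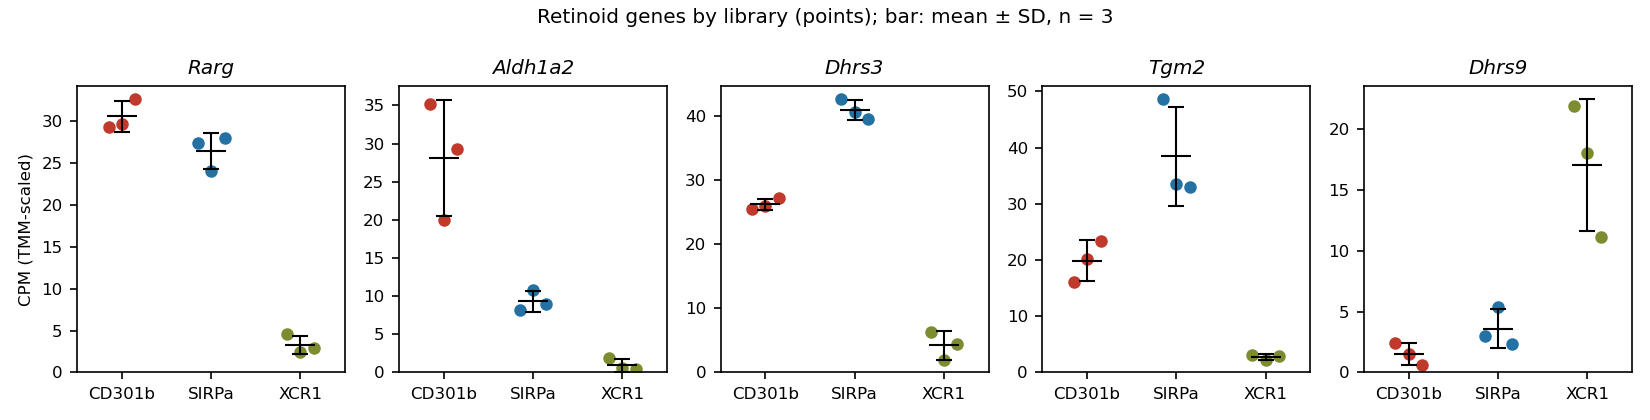
TMM-scaled CPM of 5 retinoid genes in each library (points) with the mean and SD of 3 libraries as bars, for CD301b, SIRPa and XCR1 from left to right. Aldh1a2 was highest in CD301b, Tgm2 and Dhrs3 were highest in SIRPa, Rarg was near equal in both, and Dhrs9 was highest in XCR1.

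No cofactor that nuclear receptors recruit was called between CD301b and SIRPa, where 4.28% of all genes were, so the count lies near the background. Of 14 corepressor genes and 11 coactivator genes, all tested, edgeR called 0 in each list, with 1 of each at an unadjusted p under 0.05 and 0 called by DESeq2. Ncor1, the corepressor scaffold, was at 366 ± 12.3 CPM in CD301b, at 369 ± 20.4 in SIRPa and at 368 ± 44.1 in XCR1, and Crebbp, an acetyltransferase, was at 339 ± 17.2 in CD301b and 343 ± 24.5 in SIRPa (adjusted p = 0.989 and 0.986 for CD301b over SIRPa). Median log2 fold changes were 0.08 for each list. Against XCR1, Hdac1, a histone deacetylase, was lower at 98.8 ± 19.8 CPM in CD301b and 92.3 ± 5.48 in SIRPa, against 163 ± 7.98 in XCR1 (edgeR, adjusted p = 0.000307 and 7.10e-05). Nrip1, a ligand-dependent corepressor, was higher in SIRPa at 92.4 ± 9.03 CPM, against 56.4 ± 13.1 in XCR1 (0.00275). In CD301b it was at 80.8 ± 13.3 CPM, and that call (0.0278) was lost without CD301b replicate 4 (0.161) or XCR1 replicate 2 (0.160). Ppargc1b, a coactivator of mitochondrial genes, was higher at 15.5 ± 2.74 CPM in CD301b and 14.3 ± 4.31 in SIRPa, against 4.30 ± 0.801 in XCR1 (0.000169 and 0.000310). Ncoa1 and Med1 were lower in both, Ncoa1 at 86.5 ± 16.2 CPM in CD301b and 94.9 ± 7.25 in SIRPa against 126 ± 3.92 in XCR1. With 1 library left out, Ncoa1 in SIRPa passed in 5 of 9 fits and Med1 in CD301b in 4 of 9.

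The 3 JmjC demethylase genes related to Hr did not pass between CD301b and SIRPa, as most genes did not. There edgeR called 0 of 3 against 4.28% of all genes, 0 had an unadjusted p under 0.05 and DESeq2 called 0. Jmjd1c was at 288 ± 59.2 CPM in CD301b and 291 ± 20.4 in SIRPa, and Kdm3a at 43.6 ± 6.77 and 41.1 ± 4.61 in the same order. Kdm3b, which removes methyl groups from histone H3, was lower at 228 ± 26.1 CPM in CD301b and 223 ± 11.2 in SIRPa, against 317 ± 8.58 in XCR1 (edgeR, adjusted p = 0.00173 and 0.000833).

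Target and ligand genes of the other receptors were called against XCR1 and not between CD301b and SIRPa, and over all genes too calls were fewer there, with 4.28% between CD301b and SIRPa against 22.6% and 24.7% for CD301b and SIRPa over XCR1. Between CD301b and SIRPa, edgeR called 0 of 4 tested vitamin D genes, 0 of 4 thyroid hormone genes, 0 of 13 PPAR targets, 0 of 10 glucocorticoid targets, 0 of 6 glucocorticoid receptor chaperones and steroid enzymes and 0 of 12 clock genes linked to ROR receptors. At an unadjusted p under 0.05 these lists held 1, 1, 3, 2, 1 and 0 genes, and DESeq2 called 1 glucocorticoid target and none of the rest. With 1 library left out, edgeR called 1 PPAR target without SIRPa replicate 1 and 1 glucocorticoid target without CD301b replicate 4 or XCR1 replicate 3. Median log2 fold changes were 0.55, -0.17, -0.13, 0.27, 0.14 and -0.13 in that order. The uncalled gene with the most CPM in each list, not scaled to length, was Cd14 at 25.01 ± 2.58 CPM in CD301b and 12.4 ± 2.77 in SIRPa, Slc16a10 at 10.8 ± 2.34 and 17.1 ± 2.75, Fabp5 at 475 ± 51.7 and 561 ± 20.2, Zfp36 at 454 ± 65.8 and 328 ± 38.1, Hsp90ab1 at 2486 ± 259 and 2199 ± 72.8, and Bhlhe40 at 255 ± 14.5 and 260 ± 26.4. Their adjusted p ranged from 0.0748 for Zfp36 to 0.973 for Bhlhe40.

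Against XCR1 the PPAR targets went both ways. Of 13 tested of 15, 3 were higher and 3 lower in CD301b, and 3 were higher and 4 lower in SIRPa, with medians of 0.10 and 0.12. Of all genes, 13.5% were higher and 9.12% lower in CD301b, and 13.9% were higher and 10.7% lower in SIRPa. With 1 library left out, Hadha, higher in CD301b, passed in 4 of 9 fits and Fabp4, higher in SIRPa, in 2 of 9. Fabp5, a fatty acid carrier, was at 475 ± 51.7 CPM in CD301b and 561 ± 20.2 in SIRPa against 52.9 ± 5.19 in XCR1 (edgeR, adjusted p = 1.95e-14 and 1.13e-14). Lpl, a lipase, was at 86.8 ± 4.39 in CD301b and 99.1 ± 17.7 in SIRPa against 2.62 ± 1.34 in XCR1 (1.12e-08 and 7.85e-09). Cd36, a fatty acid and scavenger receptor, was lower at 7.48 ± 2.48 CPM in CD301b and 8.90 ± 3.63 in SIRPa against 185 ± 6.53 in XCR1 (2.32e-07 and 3.36e-07). Acadl, an enzyme of fat oxidation, and Plin2, a lipid droplet coat protein, were lower too, Acadl at 145 ± 11.3 CPM in CD301b and 159 ± 4.53 in SIRPa against 371 ± 40.5 in XCR1, and Plin2 at 65.7 ± 9.37 and 52.0 ± 2.25 against 159 ± 19.6.

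Each of the other ligand and target lists held calls against XCR1. Of 4 vitamin D genes, Cd14, a receptor for bacterial lipid that vitamin D induces in human monocytes, was higher at 25.01 ± 2.58 CPM in CD301b and 12.4 ± 2.77 in SIRPa against 0.923 ± 0.978 in XCR1 (edgeR, adjusted p = 0.00222 and 0.00666). Cyp27a1, a sterol and vitamin D hydroxylase, was lower at 16.5 ± 2.62 and 15.3 ± 1.21 CPM in CD301b and SIRPa against 38.6 ± 6.31 in XCR1 (0.000188 and 7.10e-05). Of 4 thyroid hormone genes, the transporter Slc16a10 was higher at 10.8 ± 2.34 and 17.1 ± 2.75 CPM in CD301b and SIRPa against 1.89 ± 0.972 in XCR1 (3.85e-05 and 2.33e-06). Of 12 clock genes 3 were higher in CD301b and 4 in SIRPa, led by Bhlhe40, a repressor of clock genes, at 255 ± 14.5 and 260 ± 26.4 CPM in CD301b and SIRPa against 47.8 ± 7.83 in XCR1 (6.36e-12 and 5.90e-12). In SIRPa the count of clock genes became 2 without SIRPa replicate 1 or 2 or XCR1 replicate 1, where Dbp and Tef were lost. In CD301b Tef passed in 5 of 9 fits that left out 1 library. Of 10 glucocorticoid targets 4 were higher in CD301b, while 3 were higher and 1 lower in SIRPa. The first count became 2 when XCR1 replicate 2, SIRPa replicate 2, or replicate 3 or 4 of CD301b was left out, where Ddit4 and Dusp1 were both lost. In other fits 1 of these 2 genes was lost, and each passed in 3 of 9 fits that left out 1 library. In SIRPa 2 were higher and 0 lower without SIRPa replicate 2 or XCR1 replicate 3, where Dusp1 and Fkbp5 were both lost. There Dusp1 passed in 5 and Fkbp5 in 4 of 9 such fits. Among the rest, Zfp36, an mRNA decay factor, was at 454 ± 65.8 CPM in CD301b and 328 ± 38.1 in SIRPa against 226 ± 44.6 in XCR1 (3.31e-05 and 0.00881). Sgk1, a kinase, was at 46.2 ± 9.61 and 66.9 ± 8.78 CPM in CD301b and SIRPa against 22.3 ± 6.63 in XCR1 (0.000611 and 5.35e-06). Of 6 chaperone and steroid enzyme genes, Fkbp4, a co-chaperone of steroid receptors, was lower at 66.9 ± 6.09 and 62.0 ± 5.49 CPM in CD301b and SIRPa against 109 ± 7.40 in XCR1 (0.000365 and 6.97e-05). In SIRPa Ptges3, the co-chaperone p23, was lower too (0.0245), a call lost without SIRPa replicate 2 or 3 or XCR1 replicate 1 or 2 (0.0528 to 0.117). Comparisons with XCR1 share the XCR1 libraries, so their calls are not separate evidence. The genes of these lists were tested over all 15417 genes, of which 22.6% were called for CD301b against XCR1 and 24.7% for SIRPa against XCR1.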

How the data were processed

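Per the labels, sorted thymic dendritic cells were processed with a Qiagen RNeasy Micro kit and a Clontech stranded total RNA kit and sequenced on a NextSeq instrument. Per the submitters' processing notes, the tools named are HISAT2, Trimmomatic, FastQC, SAMtools, edgeR and Subread's featureCounts, on mm10, without versions, annotation or strand setting. The deposited table holds raw counts per gene symbol, as whole numbers. A second deposited table holds log2 CPM and served as a check: for the 10 genes, over 69 values with at least 100 counts, it exceeded log2 CPM recomputed here by a median of 0.120 (0.114 to 0.134).

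From the counts, 24 symbols turned into dates (0.125 to 0.187% of a library) were left out. The edgeR filter (filterByExpr, minimum count 10) kept 15417 genes, among them all 10 followed here. Sizes were scaled by TMM, and the two-sided quasi-likelihood test ran in 1 fit over 9 libraries, with Benjamini-Hochberg adjustment over all genes of a comparison and a threshold of 0.05. The fit was tested on simulated data (R 4.3.3, DESeq2 1.42.0, edgeR 4.0.16, limma 3.58.1). Levels are CPM on scaled sizes, as mean ± SD, and fold changes are ± SE. Lengths, positions and overlaps come from GENCODE on GRCm38, and the authors' annotation may differ. A group at 0 was given a floor of 3 counts over its 3 libraries. Reads carried no stated molecular identifiers, so floors cover counting error only. Replicate numbers were not used to pair libraries.

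The genes and lists were chosen with earlier results of these data known. Named are the 10 genes, the called genes of lowest adjusted p, at most 3 per list and comparison (the text gives only some of these), the uncalled gene with the highest mean where none was called, the genes most like Hr and like receptors called in at least 2 comparisons (log2 CPM with prior count 2), and neighbours of Hr within 100 kb. Outside that rule, Kdm3a, Dhrs9, Nr4a2, Rdh11, Rbp4, Cyp26b1, Rxrg, Ddit4, Dusp1, Fkbp5, Dbp, Tef, Hadha and Fabp4 and the markers C1qa, Timd4, Irf4, Clec10a, Tcf4, Bst2 and Ly6d were added after their values were seen. Alternatives were RLE and DESeq2 size factors, no filter, a replicate block, only the 6 libraries compared, and each library left out.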

Additional observations from a re-analysis of the deposited data

How the results depend on the processing

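The calls of Hr in SIRPa over XCR1 and of Rara, Rxra and Nr4a3 kept their direction and their side of the threshold under all alternatives run. The number of genes called for CD301b against SIRPa was 660 and moved to 328 to 813 with 1 library left out, being 328 without SIRPa replicate 1, 418 without SIRPa replicate 3 and 438 without CD301b replicate 3. The bound on Hr in CD301b over XCR1 moved to 1274 to 2020-fold, since fewer XCR1 libraries raise the floor. Log2 fold changes of Nr3c1, Pparg, Rxrb and Thra turned sign in 13 pairs of a fold change and a setting, none of them called. Not all were near 0 in the main fit, where Pparg was at -0.46 ± 0.64 for CD301b over SIRPa. For CD301b over SIRPa, the log2 fold change of Nr3c1 became -0.039, -0.0062 and -0.0081 without CD301b replicate 1, CD301b replicate 4 and SIRPa replicate 1 (range -0.039 to 0.097). That of Pparg became 0.13 without SIRPa replicate 1 (-1.23 to 0.13) and that of Rxrb 0.049 without CD301b replicate 3 (-0.27 to 0.049). For CD301b over XCR1, Pparg became -0.59 without CD301b replicate 1 (-0.59 to 0.63), Rxrb -0.13 and -0.12 without CD301b replicate 4 and XCR1 replicate 3 (-0.13 to 0.20), and Thra -0.28 and -0.35 without CD301b replicate 3 and XCR1 replicate 2 (-0.35 to 0.65). For SIRPa over XCR1, Rxrb became -0.012 without XCR1 replicate 3 (-0.012 to 0.31). The cause was not tested.

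Deviations of same-numbered libraries of different populations correlated weakly, at 0.00305 to 0.0413 over 7 pairs, all above 0. The other 20 pairs spanned -0.0672 to 0.0481. Of 8 libraries, 4 correlated best with a library of their own number. These values cannot decide whether the numbers stand for shared animals. The labels do not say so either, and the numbers were not taken as pairing in the main fit. With the replicate block, 660, 2913 and 4034 genes and 2, 3 and 4 of the 9 receptors were called for CD301b against SIRPa, CD301b against XCR1 and SIRPa against XCR1. Under it Rora in CD301b against XCR1 was lost (0.0593), Vdr in SIRPa against XCR1 passed (0.0279), Aldh1a2 in CD301b against SIRPa was lost (0.0827), and the log2 fold changes of Rxrb and Thra in CD301b over XCR1 became -0.088 and -0.12.

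Rora in CD301b against XCR1 had an adjusted p of up to 0.103 in the 7 fits that lost it, and 0.0558 with only the 6 libraries compared. With a prior count of 0.5, chosen after seeing the data, 4 of the 5 genes closest to Hr were shared, and Tarm1 took the place of Ngfr. Thra, Pparg and Rora had the lowest depth of the receptors, 134 to 1087 counts per population, and whether depth or the spread between replicates limits their calls was not tested. Counts of called genes in the lists moved by over 1.5 times in 52 pairs of a count and a setting.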
